A study of Homo sapiens with 12 samples.

Results

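The genes described here are 10 components and targets of the bone morphogenetic protein (BMP) pathway, followed through drug treatment of melanoma cells. They are the ligands BMP4 and BMP7, the receptors BMPR1A, BMPR1B and BMPR2, the targets ID1, ID2, ID3 and ID4, and the inhibitory SMAD6. They were found by symbol, 10 of the 23273 genes listed for each cell line. RNA was sequenced from 2 established human melanoma lines, COLO858 and MMACSF. Each line was grown in its own medium with fetal bovine serum and treated with vehicle (DMSO) or with 0.2 μM vemurafenib, an inhibitor of mutant BRAF kinase, for 24 or 48 h. With 2 replicates in each of the 6 groups there were 12 libraries. When the DMSO-treated cells were harvested is not labelled, and 1 pair of DMSO libraries in each line served as the control for both drug times. The replicates were separate plates, and nothing states that they came from separate experiments, so p-values measure the spread between these plates. Serum can itself carry BMP activity, and the ligands in the medium were not measured here.

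BMPs are secreted proteins of the TGF-β family. A BMP dimer assembles type I receptors, such as BMPR1A and BMPR1B, with a type II receptor, such as BMPR2, and the active receptor phosphorylates SMAD1, SMAD5 and SMAD9. With SMAD4 these enter the nucleus and switch on genes that include the ID family and SMAD6. ID proteins have a helix-loop-helix domain but no DNA-binding region, so they bind E proteins and other basic helix-loop-helix (bHLH) factors and hold them off DNA. SMAD6 acts back on the receptors and on SMAD1 as a brake. BMP signals help to specify the neural crest, from which melanocytes arise. ID genes also respond to serum, growth factors and other signals, so their RNA is not a measure of BMP activity alone.

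On GRCh37, the same assembly as the hg19 build of the authors' mapping, ID1 lies at chr20:30193086-30194318 and ID2 at chr2:8818975-8824591, both on the plus strand. ID3 lies at chr1:23884417-23885992 on the minus strand, and ID4 at chr6:19837601-19842428 on the plus strand. SMAD6 is at chr15:66994574-67075187 on the plus strand, BMP4 at chr14:54416454-54425479 and BMP7 at chr20:55743809-55841697, both on the minus strand. The receptors BMPR1A (chr10:88516353-88692582), BMPR1B (chr4:95679106-96079599) and BMPR2 (chr2:203241050-203432474) are on the plus strand. These are GENCODE v44 gene spans lifted to GRCh37. The annotation places antisense transcripts over ID2, ID4, BMP4 and BMP7. On the same strand it places a small nuclear RNA over BMPR1A, a protein-coding gene and a processed pseudogene over BMPR2, and a long non-coding RNA over SMAD6. Processed pseudogenes of BMPR1A and ID2 lie elsewhere. How reads were counted by strand and shared between copies or overlapping genes is not stated, so the levels of these genes are uncertain to that extent. The pseudogene ID2B, the only one of these copies that is listed, did not exceed 0.237 FPKM.

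The sequences below are the 250 bases before the RefSeq start site of the 4 ID genes and SMAD6, shown because these 5 genes are known direct targets of the BMP SMADs and carry most of the changes described below. They are RefSeq sequences (table build GRCh38.p14) printed 5′ to 3′ on the gene's strand, with the position of the exact match in GRCh37. Capitals mark GTCT, the core of the SMAD-binding element, or its reverse complement AGAC. The GC-rich BMP SMAD motif GGCGCC would also be capitalised, but none of the 5 sequences holds it.
ID1 (chr20:30192842-30193091, plus): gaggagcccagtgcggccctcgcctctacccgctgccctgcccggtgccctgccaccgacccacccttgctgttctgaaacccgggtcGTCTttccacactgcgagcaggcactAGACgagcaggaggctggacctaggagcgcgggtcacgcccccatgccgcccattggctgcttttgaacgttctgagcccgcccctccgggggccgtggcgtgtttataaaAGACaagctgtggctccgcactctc
ID2 (chr2:8821936-8822185, plus): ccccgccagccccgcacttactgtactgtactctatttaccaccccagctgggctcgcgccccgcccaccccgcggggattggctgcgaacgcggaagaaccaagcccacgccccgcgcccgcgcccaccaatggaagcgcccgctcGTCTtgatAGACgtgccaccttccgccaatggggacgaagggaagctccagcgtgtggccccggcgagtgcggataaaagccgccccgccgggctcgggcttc
ID3 (chr1:23885993-23886242, minus): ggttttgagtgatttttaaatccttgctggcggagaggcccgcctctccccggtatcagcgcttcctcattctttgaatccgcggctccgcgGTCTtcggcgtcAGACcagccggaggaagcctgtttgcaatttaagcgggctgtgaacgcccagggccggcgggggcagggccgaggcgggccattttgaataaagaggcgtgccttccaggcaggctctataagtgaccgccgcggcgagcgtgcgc
ID4 (chr6:19837351-19837600, plus): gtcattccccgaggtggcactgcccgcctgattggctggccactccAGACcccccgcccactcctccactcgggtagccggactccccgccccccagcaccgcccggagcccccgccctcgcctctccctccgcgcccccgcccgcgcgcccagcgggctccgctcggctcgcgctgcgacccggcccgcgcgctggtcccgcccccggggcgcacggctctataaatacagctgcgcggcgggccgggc
SMAD6 (chr15:66994324-66994573, plus): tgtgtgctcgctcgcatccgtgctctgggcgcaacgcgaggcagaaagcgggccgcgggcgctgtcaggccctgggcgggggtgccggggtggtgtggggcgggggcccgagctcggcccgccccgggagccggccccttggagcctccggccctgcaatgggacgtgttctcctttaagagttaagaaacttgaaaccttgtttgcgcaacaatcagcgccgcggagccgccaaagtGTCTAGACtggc

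On either strand, GTCT occurred 3 times in the ID1 sequence, 2 times in each of ID2, ID3 and SMAD6, and 1 time in ID4. SMAD6 held the full palindrome GTCTAGAC, beginning 12 bases before the start site, and its 2 GTCT matches are the parts of that palindrome. Of 27305 RefSeq promoters of the same length, 77.6% held GTCT on either strand, 0.176% held GTCTAGAC and 16.1% held GGCGCC. Of the 10 genes, 9 had a sequence in this table: 8 held GTCT, 1 held GTCTAGAC and 2, BMP4 and BMPR2, held GGCGCC. The E box CANNTG, the site of bHLH factors, occurred in 5 of the 9 against 62.2% of all promoters. These matches describe letters in a short window and are not measured binding sites. The ID2 sequence lies inside the GENCODE span of the gene, which begins further upstream.

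Levels are given as FPKM, fragments counted per kilobase of transcript and scaled by library, and so can be set side by side between genes of a library. Changes, also those given as folds, are on the log2(FPKM + 1) scale, which understates changes of genes at low levels. A gene was called changed at an adjusted p under 0.01 in limma. The tables of the 2 lines are separate and whether they were scaled together is not stated, so levels were tested only within a line and only the responses were tested across lines. In bulk RNA, fewer cells of a type and less RNA per cell cannot be told apart.

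In DMSO-treated COLO858, BMPR1A had the highest level of the 10 genes at 27.7 ± 5.58 FPKM (SD, n = 2), followed by ID4 (17.6 ± 4.68), ID1 (16.2 ± 5.98) and ID3 (9.94 ± 4.42). ID4 and ID1 overlapped between libraries, as did ID1 and ID3. BMPR2, ID2 and SMAD6 were lower, at 3.72 ± 1.06, 2.58 ± 0.461 and 1.56 ± 0.577 FPKM, and BMP4, BMP7 and BMPR1B were below 0.3 FPKM. The order in DMSO-treated MMACSF was another one, with ID3 highest at 35.5 ± 14.9 FPKM. BMPR1A, SMAD6, BMPR2, ID4 and ID1 followed at means of 8.92 down to 6.77 FPKM, and each of the first 4 of these overlapped the next. ID2 stood at 4.80 ± 0.410, BMP4 at 2.38 ± 0.513, BMPR1B at 2.28 ± 0.184 and BMP7 at 0.905 ± 0.0204 FPKM. By 24 h of drug ID3 had the highest mean in both lines, 37.8 ± 13.2 FPKM in COLO858 and 76.1 ± 34.8 FPKM in MMACSF.

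**Figure D1:**
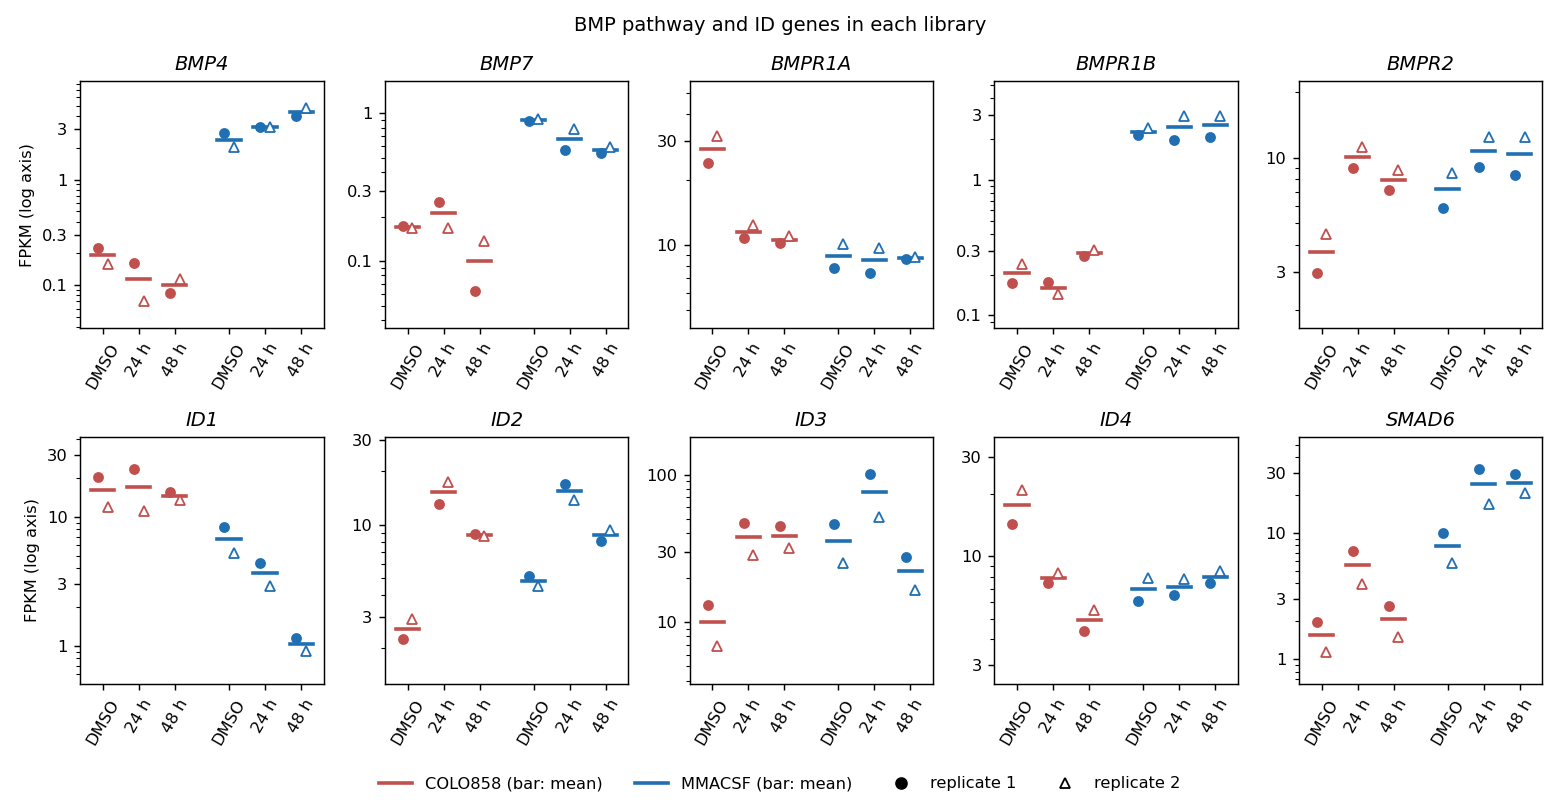
FPKM on a log axis of each of the 10 genes in each of the 12 libraries, with COLO858 in red, MMACSF in blue, filled circles for replicate 1, open triangles for replicate 2, and a bar at the mean of each group. ID2 was higher at 24 h than under DMSO in both lines, ID4 and BMPR1A were lower in drug in COLO858 and overlapped DMSO in MMACSF, and ID1 was lower in drug in MMACSF while its COLO858 groups overlapped.

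Across the genes tested in each line, few of the 10 passed the threshold in the fits without a block for the replicate number, to which the calls below refer. In COLO858 at 24 h 1 of the 7 tested was called, ID2, against 9.82% of all genes tested. At 48 h 3 of 7 were called, ID2 upward and BMPR1A and ID4 downward, against 9.47%. In MMACSF 1 of 9 was called at 24 h, again ID2, against 5.83% of all genes, and 1 of 9 at 48 h, ID1 downward, against 8.83%. BMP7 passed the minimum of 1 FPKM in neither line, and BMP4 and BMPR1B did not pass it in COLO858. The median change of the genes tested was 1.25 in COLO858 at 24 h, where that of all genes was 0.06, and 0.26 at 48 h, where that of all genes was -0.01. In MMACSF the medians were 0.30 and 0.17 against 0.07 and 0.06. Each of these calls was lost when any 1 of the 6 libraries of its line was left out, and when the spread was taken from the 4 libraries compared, with directions unchanged. Those smaller fits called few genes of any kind: with 1 library left out the share of all genes called was 0.520% to 3.41% and 0.874% to 2.76% in COLO858 at 24 and 48 h, and 0.357% to 0.556% and 0.675% to 2.76% in MMACSF. With no minimum level the 4 calls at 48 h were lost as well (adjusted p = 0.0125 to 0.0134), and median-ratio rescaling of the libraries raised the COLO858 count at 24 h from 1 to 4, adding BMPR2 upward and BMPR1A and ID4 downward. With no minimum level 5.46% and 4.75% of all genes were called at 48 h in COLO858 and MMACSF. With the rescaling 12.1% were called in COLO858 at 24 h. With the threshold at 0.05, 6 of 7 passed in COLO858 at 24 h and 5 of 7 at 48 h, where 25.8% and 26.0% of all genes did. In MMACSF 1 and 4 of 9 passed, beside 20.3% and 24.1% of all genes. With a block for the replicate number more passed at 0.01, both among the 10 and among all genes. In COLO858 these were 6 and 5 of 7 at 24 and 48 h, beside 45.0% and 43.7% of all genes. In MMACSF they were 4 and 4 of 9, beside 26.1% and 30.1%.

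ID2 was the only gene of the 10 called in both lines in the fits without a block for the replicate number. With the block BMPR2, ID3 and SMAD6 also passed at 24 h in both lines, upward like ID2. In COLO858 ID2 stood at 2.25 and 2.90 FPKM under DMSO, 13.0 and 17.5 FPKM at 24 h, and 8.80 and 8.59 FPKM at 48 h. All 4 drug-treated libraries were above both DMSO libraries, and the 24 h libraries were above those of 48 h. The increase was 4.52-fold at 24 h (log2 change 2.18 ± 0.20 SE, 95% interval 1.68 to 2.67, limma adjusted p = 0.00240) and 2.72-fold at 48 h (1.44 ± 0.20, 0.95 to 1.94, adjusted p = 0.00743). Without a pseudocount the ratios of the mean FPKM were 5.92 and 3.37. In MMACSF ID2 stood at 5.09 and 4.51 FPKM under DMSO, 17.0 and 13.9 FPKM at 24 h, and 8.10 and 9.36 FPKM at 48 h, and again the 3 groups did not overlap. The increase was 2.82-fold at 24 h (log2 change 1.50 ± 0.16 SE, 95% interval 1.09 to 1.90, limma adjusted p = 0.00520), and 3.21 as the ratio of the mean FPKM without a pseudocount. At 48 h the difference of 0.74 did not pass the threshold (adjusted p = 0.0271). From 24 to 48 h ID2 was lower by similar amounts in both lines, -0.73 in COLO858 and -0.75 in MMACSF, neither past the threshold (adjusted p = 0.110 and 0.286). With 1 library left out, the adjusted p of the 3 calls ranged from 0.0110 to 0.0223 in COLO858 at 24 h, 0.0177 to 0.0531 at 48 h, and 0.0259 to 0.0496 in MMACSF at 24 h. The log2 changes stayed between 1.98 and 2.38, 1.31 and 1.58, and 1.36 and 1.63. The COLO858 call at 48 h was also lost with a minimum of 10 FPKM (adjusted p = 0.0113).

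ID4 was called lower in COLO858 at 48 h. Its levels were 14.3 and 20.9 FPKM under DMSO, 7.44 and 8.30 FPKM at 24 h, and 4.38 and 5.52 FPKM at 48 h, so that each group lay below the one before it without overlap. At 48 h ID4 was 3.09-fold lower (log2 change -1.63 ± 0.22 SE, 95% interval -2.20 to -1.06, limma adjusted p = 0.00779), and the ratio of the mean FPKM without a pseudocount was 0.281. The 24 h difference of -1.05 did not pass the threshold (adjusted p = 0.0260). In MMACSF the same gene stood at 6.13 and 7.83 FPKM under DMSO, 6.52 and 7.76 FPKM at 24 h, and 7.41 and 8.48 FPKM at 48 h, with overlap between all 3 groups. Its changes there were 0.03 at 24 h, with a 95% interval of -0.41 to 0.48, and 0.17 at 48 h, with an interval of -0.27 to 0.61 (adjusted p = 0.919 and 0.518). When libraries were rescaled by median ratios the first of these became -0.07. With 1 library left out, the adjusted p of the COLO858 call ranged from 0.0237 to 0.0542 and the log2 change from -1.89 to -1.37.

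ID1 was called lower in MMACSF at 48 h. Its levels were 8.32 and 5.22 FPKM under DMSO, 4.39 and 2.91 FPKM at 24 h, and 1.14 and 0.906 FPKM at 48 h. The 3 groups did not overlap, and both 48 h libraries were the lowest. The 48 h level was 3.77-fold lower on the log2(FPKM + 1) scale (log2 change -1.91 ± 0.27 SE, 95% interval -2.58 to -1.25, limma adjusted p = 0.00797), and the ratio of the mean FPKM without a pseudocount was 0.151. The 24 h difference was -0.73 (adjusted p = 0.115) and that from 24 to 48 h was -1.18 (adjusted p = 0.312). In COLO858 ID1 stood at 20.5 and 12.01 FPKM under DMSO, 23.3 and 11.01 FPKM at 24 h, and 15.6 and 13.6 FPKM at 48 h. These groups overlapped at both times. The COLO858 changes were 0.03 at 24 h, which became -0.07 with median-ratio rescaling, and -0.10 at 48 h, with wide 95% intervals of -0.99 to 1.06 and -1.12 to 0.93. With 1 library left out, the adjusted p of the MMACSF call ranged from 0.0163 to 0.0652 and the log2 change from -2.21 to -1.62.

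ID3 had the largest values of the ID genes in drug and passed the threshold in neither line in the fits without a block for the replicate number. With the block ID3 passed at 24 and 48 h in COLO858 (limma adjusted p = 0.000409 and 0.000415) and in MMACSF (0.00190 and 0.00470). In COLO858 it stood at 13.1 and 6.82 FPKM under DMSO, 47.1 and 28.5 FPKM at 24 h, and 45.1 and 31.6 FPKM at 48 h. All 4 drug-treated libraries were above both DMSO libraries. The log2 changes were 1.84 at 24 h (95% interval 0.86 to 2.83, limma adjusted p = 0.0249) and 1.89 at 48 h (0.90 to 2.87, adjusted p = 0.0239). In MMACSF ID3 stood at 46.1 and 24.9 FPKM under DMSO, 101 and 51.4 FPKM at 24 h, and 27.5 and 16.5 FPKM at 48 h. Both 24 h libraries were above the other 4, and the DMSO and 48 h groups overlapped. The MMACSF changes were 1.06 at 24 h (adjusted p = 0.160), -0.65 at 48 h (adjusted p = 0.347) and -1.71 from 24 to 48 h (95% interval -2.85 to -0.57, adjusted p = 0.439).

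SMAD6, the inhibitory SMAD, likewise passed in neither line in the fits without the block. With the block SMAD6 passed at 24 h but not 48 h in COLO858 (limma adjusted p = 0.000970 and 0.0889). In MMACSF it then passed at both times (0.00198 and 0.00148). In COLO858 it stood at 1.96 and 1.15 FPKM under DMSO, 7.24 and 3.95 FPKM at 24 h, and 2.63 and 1.52 FPKM at 48 h. The 24 h libraries were above the other 4, and the 48 h group overlapped DMSO. The changes were 1.34 at 24 h (limma adjusted p = 0.0402), 0.26 at 48 h (adjusted p = 0.611) and -1.08 from 24 to 48 h (95% interval -1.93 to -0.23, adjusted p = 0.157). In MMACSF SMAD6 stood at 10.0 and 5.79 FPKM under DMSO, 32.2 and 16.8 FPKM at 24 h, and 29.6 and 20.6 FPKM at 48 h. Here both drug times were above both DMSO libraries. The changes were 1.49 at 24 h (adjusted p = 0.0516), 1.57 at 48 h (adjusted p = 0.0401) and 0.08 between the times.

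For ID1, ID3 and SMAD6 the spread between replicates had 1 direction. Replicate 1 was above replicate 2 in 6 of 6 groups, by 1.15 to 2.12 times for ID1, 1.43 to 1.96 times for ID3 and 1.44 to 1.91 times for SMAD6. BMPR1A, BMPR2 and ID4 had the opposite order in 6 of 6 groups. Of the 11700 genes tested in both lines, 20.1% were higher in replicate 1 in every group and 39.2% were lower. What the replicate numbers mark is not described. The ratios that follow are of FPKM without a pseudocount. Compared within a number, ID3 in COLO858 was 3.61 and 4.18 times its DMSO level at 24 h and 3.45 and 4.63 times at 48 h. In MMACSF it was 2.19 and 2.06 times at 24 h and 0.598 and 0.661 times at 48 h. For SMAD6 these ratios were 3.69 and 3.44 at 24 h and 1.34 and 1.32 at 48 h in COLO858. They were 3.21 and 2.91 at 24 h and 2.94 and 3.55 at 48 h in MMACSF.

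Among the receptors, BMPR1A was called lower in COLO858 at 48 h. This type I receptor stood at 23.8 and 31.7 FPKM under DMSO, 10.7 and 12.3 FPKM at 24 h, and 10.2 and 10.97 FPKM at 48 h. All 4 drug-treated libraries were below both DMSO libraries. It was 2.46-fold lower at 48 h (log2 change -1.30 ± 0.18 SE, 95% interval -1.77 to -0.83, limma adjusted p = 0.00840), and the 24 h difference of -1.19 fell just outside the threshold (adjusted p = 0.0105). In MMACSF BMPR1A stood at 7.81 and 10.0 FPKM under DMSO, 7.40 and 9.70 FPKM at 24 h, and 8.62 and 8.75 FPKM at 48 h, with overlap between all 3 groups. The changes there were -0.06, with a 95% interval of -0.53 to 0.42, and -0.03, with an interval of -0.50 to 0.45. With 1 library left out, the adjusted p of the COLO858 call ranged from 0.0263 to 0.0588 and the log2 change from -1.50 to -1.10.

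BMPR2, the type II receptor, had values in the other direction and was not called in the fits without the block. With the block BMPR2 passed at 24 and 48 h in COLO858 (limma adjusted p = 0.000600 and 0.00116) and in MMACSF (0.00619 and 0.00728). In COLO858 it stood at 2.97 and 4.47 FPKM under DMSO, 8.94 and 11.3 FPKM at 24 h, and 7.14 and 8.76 FPKM at 48 h. The drug-treated libraries were all above the DMSO libraries, with changes of 1.25 at 24 h (95% interval 0.67 to 1.82, limma adjusted p = 0.0166) and 0.94 at 48 h (0.36 to 1.51, adjusted p = 0.0370). In MMACSF it stood at 5.87 and 8.48 FPKM under DMSO, 9.07 and 12.5 FPKM at 24 h, and 8.32 and 12.5 FPKM at 48 h. The changes were 0.53 and 0.48 (adjusted p = 0.233 and 0.265), and the 48 h group overlapped DMSO. BMPR1B, the second type I receptor, was measurable in MMACSF, at 2.15 and 2.41 FPKM under DMSO, 1.96 and 2.96 FPKM at 24 h, and 2.08 and 2.99 FPKM at 48 h. Its changes were 0.07 and 0.10 (adjusted p = 0.861 and 0.774), and the first became -0.01 with median-ratio rescaling. In COLO858 BMPR1B ranged from 0.144 to 0.303 FPKM in the 6 libraries and was not tested.

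Of the ligands, BMP4 was found at more than 1 FPKM in MMACSF. It stood at 2.75 and 2.02 FPKM under DMSO, 3.14 and 3.16 FPKM at 24 h, and 4.02 and 4.76 FPKM at 48 h. The 3 groups did not overlap and rank in the order of treatment time, but no difference passed the threshold: the change was 0.30 at 24 h (limma adjusted p = 0.273) and 0.68 at 48 h (95% interval 0.24 to 1.11, adjusted p = 0.0435). In COLO858 BMP4 ranged from 0.0699 to 0.226 FPKM and was not tested. BMP7 did not reach 1 FPKM in any library. In MMACSF it stood at 0.891 and 0.920 FPKM under DMSO, 0.569 and 0.781 FPKM at 24 h, and 0.542 and 0.593 FPKM at 48 h, and in COLO858 it ranged from 0.0631 to 0.253 FPKM.

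**Figure D2:**
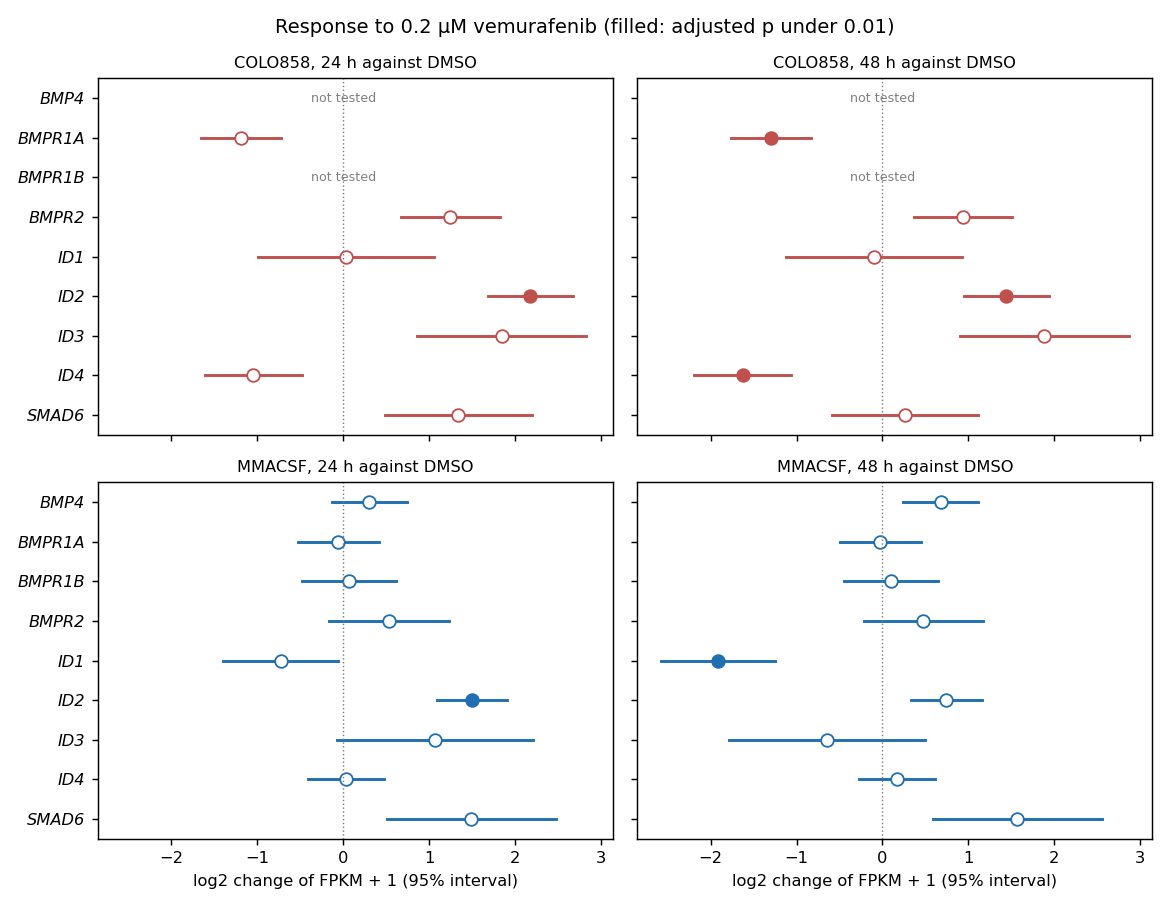
Change of each gene against DMSO on the log2(FPKM + 1) scale with its 95% interval, for each line (rows) and drug time (columns), where filled points had a limma adjusted p under 0.01. ID2 is the filled point to the right in 3 of the 4 panels, BMPR1A and ID4 are the filled points to the left in COLO858 at 48 h, and ID1 is the filled point to the left in MMACSF at 48 h.

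From 24 to 48 h no gene of the 10 was called in either line. In COLO858, where 1.38% of all genes tested were called, 3 of the 7 had an unadjusted p under 0.05, as did 20.1% of all genes, and none an adjusted p under 0.05. In MMACSF, where 0.222% were called, 3 of 9 had an unadjusted p under 0.05, as did 6.98% of all genes, and likewise none passed after adjustment. The median change between the times was -0.31 for the genes tested in COLO858, where that of all genes was -0.07, and 0.03 in MMACSF against -0.02.

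The difference between the lines in response was tested as an interaction over the 12 libraries, COLO858 minus MMACSF. ID4 was the 1 gene of 9 called, at 48 h, where 7.48% of all genes were called. Its response was lower in COLO858 by a log2 difference of -1.80 (95% interval -2.46 to -1.14, limma adjusted p = 0.00420). The call held in 5 of the 12 fits that left out 1 library. It was lost without COLO858 DMSO replicate 2, either COLO858 48 h library, either MMACSF DMSO library or either MMACSF 48 h library, with an adjusted p of at most 0.0215, and it was lost in the fit to the 8 libraries compared (adjusted p = 0.0179). BMPR1A had a difference of -1.27 at 48 h (adjusted p = 0.0133) and of -1.13 at 24 h (adjusted p = 0.0330).

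Several other genes had wide differences between the lines at 48 h that did not pass the threshold without the block. With the block ID3, ID1 and SMAD6 passed (limma adjusted p = 7.02e-05, 0.00357 and 0.00129), as did BMPR1A (0.00130). The values that follow are from the fit without it. ID3 differed by 2.53 (95% interval 0.98 to 4.08, limma adjusted p = 0.0386), ID1 by 1.82 (0.59 to 3.04, adjusted p = 0.0548) and SMAD6 by -1.31 (-2.63 to 0.02, adjusted p = 0.188). The positive sign of ID1 and ID3 means that the value relative to DMSO was higher in COLO858, and the negative sign of SMAD6 that it was higher in MMACSF. BMP4 differed by -0.79 (adjusted p = 0.0244), but it entered this fit only through MMACSF, and its COLO858 values were all below 0.3 FPKM. BMPR2 differed by 0.46 (adjusted p = 0.515) and BMPR1B by -0.0042 (adjusted p = 0.999). ID2, which was called in both lines, differed by 0.68 at 24 h and 0.70 at 48 h (adjusted p = 0.1498 and 0.103), with 95% intervals of 0.11 to 1.25 and 0.13 to 1.27.

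At 24 h none of the 9 genes was called between the lines, where 3.71% of all genes were, and 3 of 9 had an unadjusted p under 0.05, beside 21.2% of all genes. For the change from 24 to 48 h none of 9 was called either, against 2.96% of all genes, and 2 of 9 had an unadjusted p under 0.05, beside 17.4% of all genes. The largest of these later differences were ID3 at 1.75 (limma adjusted p = 0.216) and SMAD6 at -1.16 (adjusted p = 0.371).

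**Figure D3:**
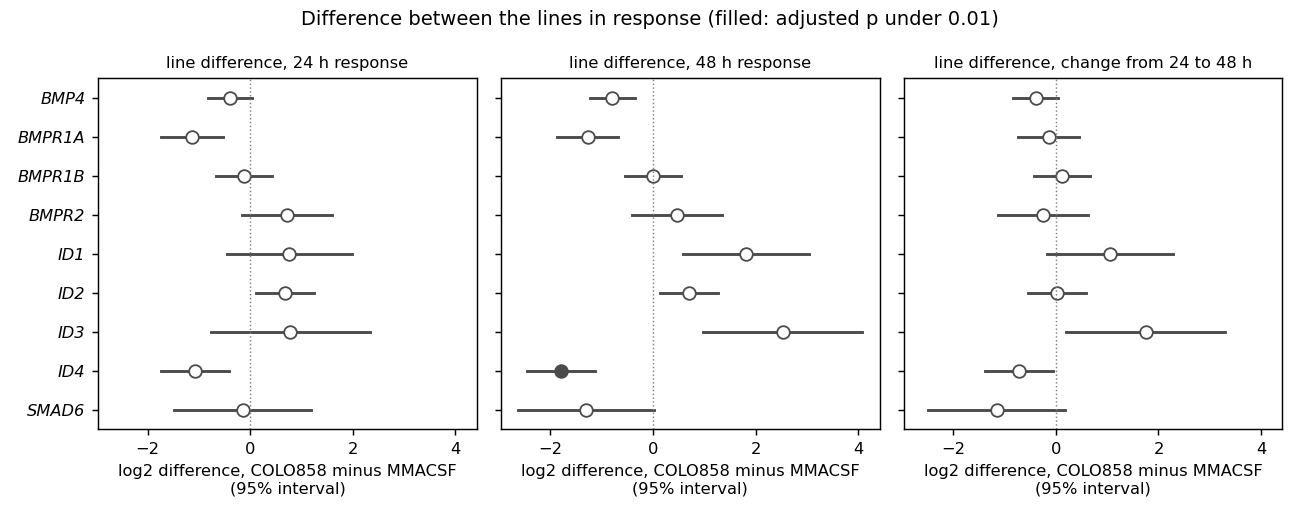
Difference between the lines (COLO858 minus MMACSF) in the change at 24 h, at 48 h and from 24 to 48 h, on the log2(FPKM + 1) scale with 95% intervals, where filled points had a limma adjusted p under 0.01. ID4 at 48 h is the only filled point, at -1.80, while ID3 lies at 2.53 and ID1 at 1.82 on the other side.

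For each ID gene the genes with the most similar changes were sought. Likeness was measured as the root mean square difference over 4 changes (24 and 48 h against DMSO in each line), searched over 11699 genes. Nearest to ID1 were MIA (0.197), MMP8 (0.215) and WDR63 (0.262). Nearest to ID2 were C1S (0.167), MAF (0.205) and IRF9 (0.263), and nearest to ID3 were NEAT1 (0.362), KLF9 (0.412) and CFI (0.429). Near to ID4 were FAM155B (0.0983) and MACROD1 (0.161), and BMPR1A ranked 10 for it (0.209). The other genes of the 10 that were tested in both lines ranked 9575 or later for ID4. For ID2, BMPR2 ranked 371, ID3 490 and SMAD6 619, and for ID3, ID2 ranked 153 and BMPR2 229. For ID1 the other genes of the 10 ranked 8124 or later. These distances come from the same 12 libraries and carry no test.

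Beyond the 10 genes, 59 others of the pathway were taken in 7 lists, covering other ligands, receptors, SMADs, inhibitors, secreted antagonists, targets and bHLH partners of ID proteins. In each line 32 passed the minimum level. In COLO858 3 of 32 (9.38%) were called at 24 h and 4 of 32 (12.5%) at 48 h, near the 9.82% and 9.47% of all genes. In MMACSF 1 of 32 (3.13%) was called at 24 h and 2 of 32 (6.25%) at 48 h, beside 5.83% and 8.83% of all genes. From 24 to 48 h none was called in either line, where 1.38% of all genes were in COLO858 and 0.222% in MMACSF. The median change was -0.02 at 24 h and -0.00017 at 48 h in COLO858. In MMACSF it was -0.01 and then -0.10.

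The target list held the widest changes. DLX5, a homeobox factor induced by BMPs in bone, stood at 2.16 and 1.45 FPKM under DMSO in COLO858, 20.6 and 14.8 FPKM at 24 h, and 47.7 and 39.3 FPKM at 48 h. In MMACSF it stood at 8.45 and 6.82 FPKM, 32.5 and 21.8 FPKM, and 29.8 and 22.4 FPKM. All drug-treated libraries of a line were above its DMSO libraries. DLX5 rose in COLO858 by 2.73 at 24 h and 3.99 at 48 h (limma adjusted p = 0.00215 and 0.000898). In MMACSF it rose at 48 h by 1.64 (adjusted p = 0.00957), and the 24 h value of 1.69 did not pass (adjusted p = 0.0110). Its 48 h response differed between the lines by 2.35 (adjusted p = 0.00349).

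HEY1, a bHLH repressor that BMP and Notch signals both induce, moved the other way. It stood at 14.5 and 17.9 FPKM under DMSO in COLO858, 2.88 and 3.28 FPKM at 24 h, and 2.31 and 2.51 FPKM at 48 h, and it was likewise lower in each drug-treated library of MMACSF. HEY1 fell by 2.07 and 2.33 in COLO858 (limma adjusted p = 0.00177 and 0.00130) and by 2.10 and 2.27 in MMACSF (adjusted p = 0.00236 and 0.00140). Of the 7 targets listed, 5 were tested in each line and 6 between the lines, and none but DLX5 and HEY1 was called in any comparison.

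Of 12 other ligands, 9 were below 1 FPKM in all 12 libraries. BMP6 stood at 1.49 and 1.36 FPKM in DMSO-treated COLO858 and between 0.120 and 0.184 FPKM in its drug-treated libraries. It fell by 1.07 at 24 h and 1.09 at 48 h (limma adjusted p = 0.00484 and 0.00503), and in MMACSF it was below 0.33 FPKM throughout and was not tested. BMP6 was also called between the lines at 24 and 48 h, but it passed the minimum level only through DMSO-treated COLO858, the group in which it was high, so the direction of these changes is not independent of that minimum. BMP8B stood at 6.58 and 5.11 FPKM in DMSO-treated COLO858, 2.51 and 2.73 FPKM at 24 h, and 2.29 and 2.08 FPKM at 48 h, and fell by 1.10 at 48 h (adjusted p = 0.00985). In MMACSF BMP8B was lower in drug as well but was not called. It stood there at 2.05 and 2.00 FPKM under DMSO, 0.605 and 0.966 FPKM at 24 h, and 0.943 and 0.769 FPKM at 48 h.

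None of the 4 SMADs that carry the BMP signal (SMAD1, SMAD5, SMAD9 and SMAD4) was called in either line at either time, and their changes ranged from -0.40 to 0.50 in COLO858 and from -0.19 to 0.34 in MMACSF. No gene of the lists of other receptors (5 of 8 tested), secreted antagonists (5 of 16 tested in COLO858, 6 in MMACSF) or bHLH partners (3 of 5 tested) was called within a line. Of the 7 inhibitors none was called within a line, but SMAD7, the second inhibitory SMAD, differed between the lines. It stood at 1.22 and 1.19 FPKM under DMSO and 2.53 and 2.47 FPKM at 48 h in COLO858, and at 3.59 and 3.04 FPKM and 1.99 and 2.04 FPKM in MMACSF. The difference in the 48 h response was 1.18 (limma adjusted p = 0.00298) and the difference between the lines in how SMAD7 moved from 24 to 48 h was 1.07 (adjusted p = 0.00916). SMAD6 and SMAD7 had line differences of opposite sign at 48 h, of which that of SMAD6 did not pass the threshold without the block. Between the lines 1 of 35 listed genes (2.86%) was called at 24 h, 3 of 35 (8.57%) at 48 h and 1 of 35 (2.86%) for the change from 24 to 48 h. These shares were near the 3.71%, 7.48% and 2.96% of all genes.

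**Figure D4:**
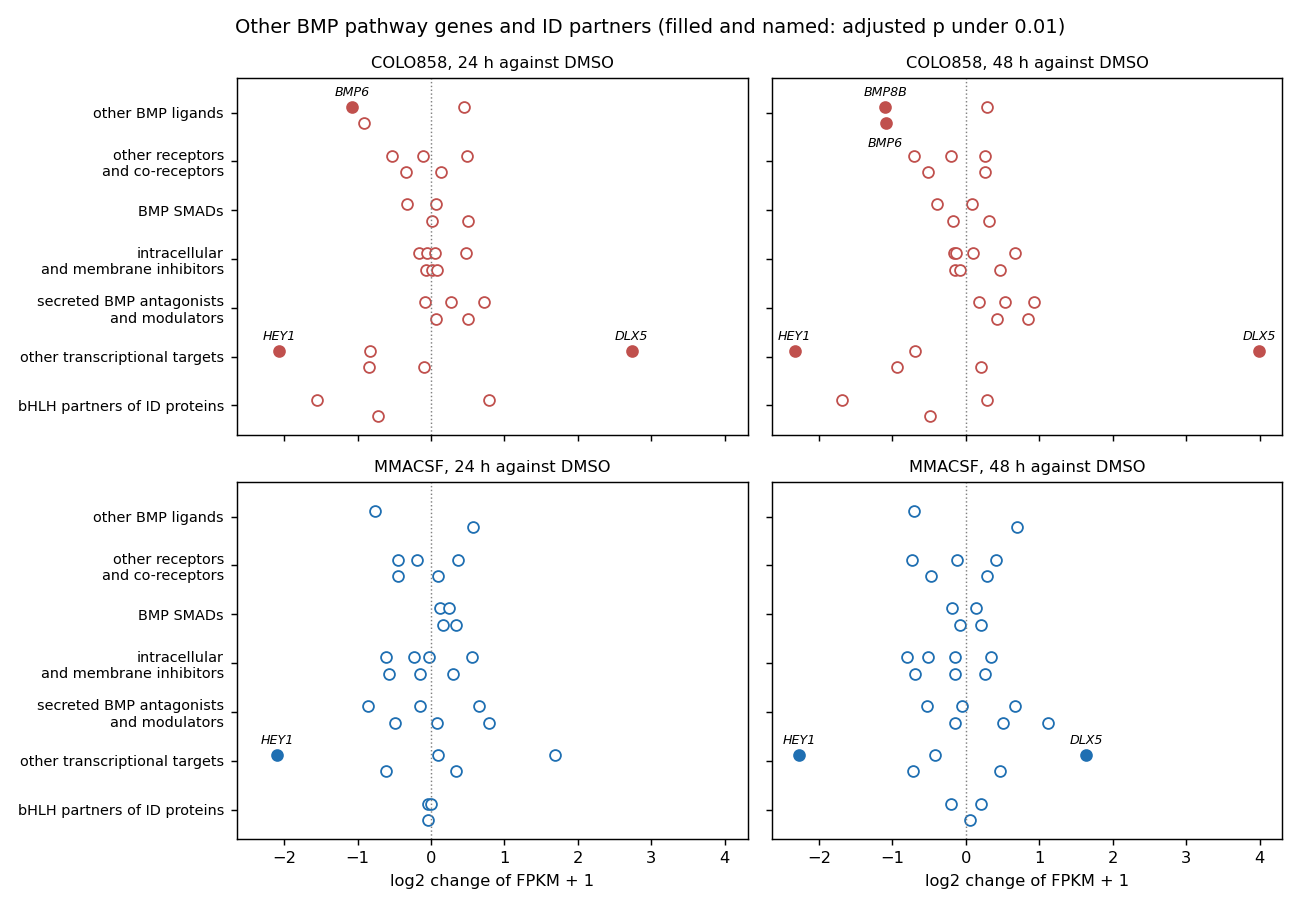
Change against DMSO on the log2(FPKM + 1) scale of each tested gene in the 7 further lists, for each line (rows) and drug time (columns), where filled and named points had a limma adjusted p under 0.01. DLX5 lies furthest right at 3.99 in COLO858 at 48 h and HEY1 furthest left in each panel, while most other points lie within 1 of zero.

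Other markers moved with treatment in the same libraries. Of 10 genes that report on MAPK output, 8 were called lower in each line at both times, with ETV4 showing the widest change (-5.55 in COLO858 at 48 h). Transcripts of 6 cycling cell markers summed to 432 and 540 FPKM under DMSO in COLO858, 66.2 and 81.4 FPKM at 24 h, and 305 and 370 FPKM at 48 h. In MMACSF the sums were 228 and 266, 50.5 and 56.0, and 34.8 and 34.5 FPKM. All 6 were called lower at 24 h in both lines and at 48 h in MMACSF, and none of the 6 at 48 h in COLO858. The 9 melanocytic markers summed to 1023 and 1011 FPKM in DMSO-treated COLO858 and 4357 to 4669 FPKM in drug, and to 11170 and 11384 FPKM and 15608 to 17567 FPKM in MMACSF. Of these markers 4 of the 8 tested were called higher at both times in COLO858, and 1 and 3 of 9 at 24 and 48 h in MMACSF. The paper counts S100B, one of those called in COLO858, among neurogenesis genes. Of all genes 9.82% and 9.47% were called in either direction in COLO858 at 24 and 48 h, and 5.83% and 8.83% in MMACSF. DCT showed the widest change (3.44 in COLO858 at 24 h). In COLO858 its mean was 267 FPKM under DMSO, 2915 FPKM at 24 h and 2150 FPKM at 48 h. DCT was thus the largest single part of the sum there in drug, but at 48 h the other markers together exceeded it. In MMACSF the largest part was PMEL, with a mean of 7944 FPKM under DMSO. The COLO858 markers did not all rise: at 48 h 6 were higher and 2 lower, MITF (-0.00395) and TYR (-0.21). The part of proliferation or of melanocytic state in the results above was not tested. Markers of blood, epithelial and endothelial cells were below 1 FPKM in all 12 libraries for 8 of 8 genes, with CD3E and KRT5 listed at 0 and sums of 0.498 to 1.34 FPKM per library. The melanocytic markers were present in both lines, except that in COLO858 MLANA was below 1 FPKM and TYR did not exceed 1.21 FPKM. The read depth of the libraries is unknown. The non-coding gene MIR4461 took 14.1% to 43.4% of the summed FPKM per library in COLO858 and 14.7% to 33.0% in MMACSF. Its share followed the replicate number in every group, at 14.1% to 19.0% in replicate 1 and 25.8% to 43.4% in replicate 2.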

How the data were processed

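RNA from 12 libraries was prepared with a stranded mRNA kit and sequenced as single reads of 50 bases. For alignment the authors used TopHat with the hg19 build. They obtained FPKM with Cuffdiff and deposited these values as 1 table for each cell line with a column for each library. That the deposited values are FPKM was taken from the paper's methods. Program versions, gene annotation, strand setting and library scaling are not given in the sources used here. Read depth is unknown, so the precision that depth gives each value is not known, and SDs and intervals rest on the 2 replicates of each group. All columns were mapped to samples by title, with 0 left unused.

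The deposited FPKM were converted to log2(FPKM + 1) and fitted with limma 3.58.1 in R 4.3.3 (mean-variance trend, no block), with the 3 groups of a line in 1 fit and all 6 groups for the differences between lines. A gene was tested when the mean of any group in the fit reached 1 FPKM. Two-sided p-values were adjusted by Benjamini-Hochberg over all genes tested, with a threshold of 0.01, and a median or count over the genes described was set beside that of all genes. The test was checked on simulated data in which same-numbered libraries shared no deviation, so that check does not cover such deviations. Comparisons within a line share its DMSO libraries and are not independent.

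The genes described and the 7 lists of other pathway genes were chosen with earlier results of these data known. All 10 genes were named in every comparison. From each further pathway list the genes past the threshold were named, at most the 4 with the largest change, and from the marker lists counts, sums and the gene with the largest change. The marker genes CD3E, KRT5, MLANA, MITF, TYR, PMEL and S100B and the pseudogene ID2B were named after their values were seen. For each ID gene the 3 genes with the most similar changes were sought, of which 1 is not reported here. Coordinates came from GENCODE v44 lifted to GRCh37, and promoter sequences from a RefSeq table. Alternatives were a pseudocount of 0.1, dropping the minimum level or raising it to 10 FPKM, a replicate block, median-ratio rescaling, a threshold of 0.05, estimating the spread from the compared libraries alone, and leaving out each library in turn.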

Additional observations from a re-analysis of the deposited data

Results flagged for a closer look

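The 48 h values of 2 genes were picked out for a closer look. For ID4 the test of the difference itself passed the threshold, with a log2 difference of -1.80 (COLO858 minus MMACSF, limma adjusted p = 0.00420). It was lower than under DMSO in 2 of 2 replicates of COLO858 at 48 h and higher within the same replicate number in 2 of 2 of MMACSF, where the groups overlapped. For BMP4 the difference was -0.79 (limma adjusted p = 0.0244), which did not pass the threshold, and every library moved down in COLO858 and up in MMACSF. BMP4 passed the minimum level only through MMACSF. It was below 0.3 FPKM in all COLO858 libraries, where a pseudocount of 1 leaves little room for a change, so its direction there rests on values near 0 and a difference in response is not shown. No group held enough libraries for a check of single outlying values.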

How the results depend on the processing

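Of the 10 genes, the number called in COLO858 at 24 h was 1, and became 2 with a pseudocount of 0.1 FPKM, 2 with a minimum of 10 FPKM, 4 with median-ratio rescaling, 6 at a threshold of 0.05 and 0 with only the libraries compared. The share of all genes called was 9.82%, and 9.73%, 10.9%, 12.1%, 25.8% and 3.76% under these settings. At 48 h in COLO858 the 3 calls became 2 with a minimum of 10 FPKM, which lost ID2, 0 with no minimum expression, 5 at a threshold of 0.05 and 0 with only the libraries compared. The share of all genes there went from 9.47% to 10.2%, 5.46%, 26.0% and 2.99%. In MMACSF the 1 call at 24 h became 0 with only the libraries compared, and the 1 call at 48 h became 0 with no minimum expression, 0 with a minimum of 10 FPKM (at which ID1 was not tested), 4 at a threshold of 0.05 and 0 with only the libraries compared. Of all genes 5.83% and then 0.468% were called at 24 h, and 8.83% and then 4.75%, 11.4%, 24.1% and 2.89% at 48 h. For the difference between the lines the count at 24 h went from 0 to 1 at a threshold of 0.05, and the share of all genes from 3.71% to 9.03%. At 48 h the count went from 1 to 2 with median-ratio rescaling, 4 at a threshold of 0.05 and 0 with only the libraries compared. The share of all genes went from 7.48% to 8.85%, 15.6% and 4.90%. With 1 library left out, the count was 0 in each fit for the 4 comparisons with DMSO, and 0 to 1 for the line difference at 48 h. In those comparisons with DMSO a smaller share of all genes was called as well with 1 library left out. Such a fit also has fewer residual degrees of freedom. The cause of these shifts was not tested.

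With the replicate number as a block (replicate block), the counts were 6 and 5 in COLO858 at 24 and 48 h, 4 and 4 in MMACSF, 1 in each line between the times, and 4, 5 and 2 for the line differences at 24 h, at 48 h and in the change. The share of all genes called rose as well, to 45.0% and 43.7% in COLO858 and 26.1% and 30.1% in MMACSF, and to 17.6%, 25.3% and 13.0% for the line differences at 24 h, at 48 h and in the change. Between the times it was 18.0% in COLO858 and 0.254% in MMACSF. Genes added by the block in COLO858 at 24 h were BMPR1A, BMPR2, ID3, ID4 and SMAD6. With the block ID3 passed against DMSO at 24 and 48 h in COLO858 (limma adjusted p = 0.000409 and 0.000415) and in MMACSF (0.00190 and 0.00470). ID3 and SMAD6 also passed for the line difference at 48 h (limma adjusted p = 7.02e-05 and 0.00129). Same-numbered libraries deviated together with Pearson's r of 0.211, 0.200 and 0.196 in COLO858 and 0.113, 0.0955 and 0.0628 in MMACSF over genes, which are not independent, and Spearman's rho was 0.726 to 0.792 and 0.614 to 0.691. Of the genes tested in both lines 20.1% were higher and 39.2% lower in replicate 1 in 6 of 6 groups. Same-numbered libraries thus shared deviations in both lines, and the fits without the block leave these in the spread. What the numbers mark is not described and there are only 2 of them, so the fits without the block were kept as the main ones. A gene that passed only with the block is therefore not shown to be unchanged.

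Median-ratio rescaling moved the median change of all genes by -0.10 at 24 h in both lines. It turned ID1 in COLO858 to -0.072, and BMPR1B and ID4 in MMACSF to -0.015 and -0.067, all at 24 h, and the line difference of BMPR1B at 48 h to 0.053. A pseudocount of 0.1 FPKM turned the line differences of SMAD6 at 24 h and BMPR1B at 48 h to 0.17 and 0.22. None of these was called. Leaving out 1 library turned the sign of other uncalled changes, whose lowest and highest values were as follows. In COLO858, ID1 ranged from -0.48 to 0.54 at 24 h, -0.46 to 0.26 at 48 h and -0.64 to 0.38 between the times, SMAD6 at 48 h from -0.00428 to 0.53, and ID3 between the times from -0.31 to 0.39. In MMACSF, BMPR1A ranged from -0.23 to 0.12, -0.19 to 0.14 and -0.14 to 0.21 in the same order, BMPR1B from -0.14 to 0.28, -0.086 to 0.28 and -0.18 to 0.24, and ID4 at 24 h from -0.12 to 0.19. Between the times BMPR2 ranged from -0.32 to 0.21 and SMAD6 from -0.37 to 0.52. For the line differences at 24 h, BMPR1B ranged from -0.33 to 0.087 and SMAD6 from -0.60 to 0.30, and at 48 h BMPR1B from -0.19 to 0.18. In the change from 24 to 48 h BMPR1A ranged from -0.32 to 0.033, BMPR1B from -0.091 to 0.33, BMPR2 from -0.52 to 0.015 and ID2 from -0.18 to 0.22. No called change of the 10 genes turned its sign under any alternative run.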
